A study of Mus musculus with 6 samples.

Results

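The cells described here are macrophages of the obstructed mouse kidney that carried high levels of complement C1q transcripts and stayed under the limits set for 5 other programmes. They were chosen by their own UMI counts (unique molecular identifiers, each standing for 1 captured transcript). A barcode was kept with at least 200 detected genes and at most 50% mitochondrially encoded UMIs. It was a member with at least 10 UMIs of C1qa, C1qb and C1qc together, under 4 of Stab1 and Mrc1, under 5 of Ifit1, Ifit2, Ifit3, Rsad2 and Cxcl9, under 10 of Cxcl2, Ccl3 and Ccl4, under 3 of Fn1, and under 5 of the cell cycle genes Mki67, Top2a, Mcm2, Mcm3, Mcm5, Mcm6, Tk1 and Hells. The choice gave 4231 members among 23578 kept barcodes (17.9%) and among 9876 barcodes with at least 10 C1q UMIs (42.8%). Since these 22 genes selected the cells, their levels are given as a description only and were left out of the tests of single genes. The shares of cells compared below count barcodes by the limits on these same genes.

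The study compared C57BL/6 mice whose ureter had been obstructed on 1 side (unilateral ureteral obstruction, a surgical model of kidney fibrosis). All 6 mice of this comparison had the surgery, and their kidneys were taken 7 days later, 3 after treatment with the compound SH045 and 3 after Vehicle, with 1 library per mouse. The series title links SH045 to inhibition of the cation channel TRPC6; the dose and route are not given in the sources used here. Contralateral control kidneys and spatial samples were not analysed here.

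C1q is the recognition molecule of the classical complement pathway. It is built from 3 chains, encoded by C1qa, C1qb and C1qc, and tissue macrophages are its main source. It binds immune complexes and dying cells, which macrophages then take up. C1q-expressing kidney macrophages also carry MHC class II molecules, which present peptides to CD4 T cells, and they release chemokines that draw monocytes into injured tissue.

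The upstream sequences of marker genes show the stretches of the genome from which these transcripts start. Of 10 marker and chemokine genes looked up in the RefSeq promoter table (GRCm38.p6), 6 were found: C1qb, C1qc, Cd72, H2-Aa, H2-Eb1 and Ccl12. The 150 bases before the start are printed for C1qb and C1qc, which define the cells, and for H2-Aa and H2-Eb1, whose levels moved together from cell to cell. Sequences run 5′ to 3′ on the strand of the gene. Capitals mark matches, on either strand, to the Y box core GATTGG of MHC class II promoters and to the PU.1 core GAGGAA. PU.1 is a transcription factor of macrophages.
C1qb (chr4:136886201-136886350, minus strand): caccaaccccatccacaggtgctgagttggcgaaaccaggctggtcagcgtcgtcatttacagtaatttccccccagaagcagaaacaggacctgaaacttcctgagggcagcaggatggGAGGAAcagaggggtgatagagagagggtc
C1qc (chr4:136892915-136893064, minus strand): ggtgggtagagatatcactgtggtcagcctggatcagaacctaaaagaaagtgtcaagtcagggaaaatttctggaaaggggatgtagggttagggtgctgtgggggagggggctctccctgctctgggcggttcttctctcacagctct
H2-Aa (chr17:34287824-34287973, minus strand): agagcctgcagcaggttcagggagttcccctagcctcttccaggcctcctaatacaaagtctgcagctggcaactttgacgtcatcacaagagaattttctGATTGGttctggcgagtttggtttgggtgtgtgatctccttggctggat
H2-Eb1 (chr17:34305717-34305866, plus strand): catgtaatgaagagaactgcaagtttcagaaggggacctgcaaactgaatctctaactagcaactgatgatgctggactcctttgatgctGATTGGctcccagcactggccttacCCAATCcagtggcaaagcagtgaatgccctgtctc

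The Y box core began 49 bases before the start of H2-Aa and 60 bases before that of H2-Eb1. A further match of H2-Eb1 lay on the opposite strand, 35 bases before the start. C1qb held 1 PU.1 core, and the window of C1qc held neither motif. Among 32851 windows of the same length in the table, 10.9% held the Y box core and 14.5% the PU.1 core. A match describes the letters of the window only.

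The libraries held between 21186872 and 32256602 UMIs over 3823 to 4558 barcodes. Members numbered 347, 636 and 714 with SH045 and 1088, 546 and 900 with Vehicle, with sums of 1183523 to 3590064 UMIs. Pairs of libraries shared 6 to 20 barcodes, except SH045 1 and SH045 2 with 52, of which 2 belonged to a member. At most 8 barcodes of any pair belonged to a member.

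The members' share of all kept cells did not separate the groups. It was 10.1%, 15.96% and 19.7% with SH045 and 26.2%, 12.8% and 21.8% with Vehicle. The means were 15.3 ± 4.81% and 20.3 ± 6.84% (SD, n = 3 each), and the two-sided exact permutation p was 0.4, where 0.1 is the smallest that 3 against 3 allows. Within the C1q-high barcodes, members made up 31.8%, 45.2% and 38.8% with SH045 and 59.8%, 33.4% and 43.2% with Vehicle (exact permutation p = 0.6). The groups overlapped: SH045 1 was lowest, and Vehicle 1 was highest.

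Of the limits that separate members from other C1q-high barcodes, 2 were passed at shares whose libraries did not overlap. C1q-high barcodes with 4 or more UMIs of Stab1 and Mrc1, scavenger and mannose receptors of resident-type macrophages, made up 51.0%, 39.4% and 51.3% with SH045 and 19.4%, 33.0% and 35.6% with Vehicle. Those with 3 or more UMIs of Fn1, the fibronectin gene, made up 4.95%, 4.83% and 1.63% with SH045 and 6.87%, 13.8% and 10.5% with Vehicle. Both had an exact permutation p of 0.1 (0.4 adjusted over the 8 shares compared). A limit in UMIs is reached more easily in a deeper cell. The median depth of members was 3129, 3064 and 3144 UMIs with SH045 and 2751.5, 3768 and 3598.5 with Vehicle. Members lie under every limit by rule. In the other C1q-high barcodes the median was 3451, 3458.5 and 3590 with SH045 and 3344, 4398 and 4269 with Vehicle. What depth contributes to either share was not tested.

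**Figure D1:**
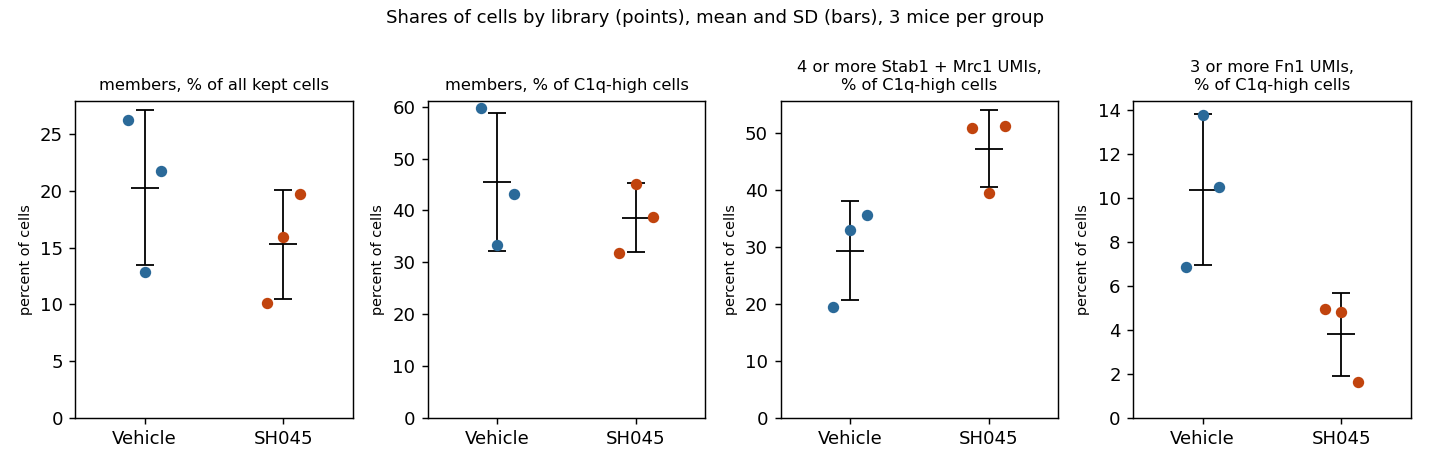
Shares of cells in percent for each library (points), with the mean and SD of the 3 mice of a group (bars). The members' shares overlap between groups in both left panels, the Stab1 and Mrc1 share lies between 39.4% and 51.3% with SH045 against 19.4% to 35.6% with Vehicle, and the Fn1 share is at most 4.95% with SH045 against at least 6.87% with Vehicle.

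The label of the cells was checked against macrophage and other markers. C1qa, C1qb and C1qc, which chose the cells, had a UMI in 99.4%, 99.9% and 99.8% of members. Markers that the choice did not use were also widespread. The lysosomal protease Ctss had a UMI in 99.9% of members, lysozyme Lyz2 in 99.5%, the MHC class II chain H2-Eb1 in 99.6%, the growth factor receptor Csf1r in 84.1%, the co-receptor Cd72 in 76.4% and Adgre1 (F4/80) in 73.8%. The engulfment receptor Mertk had one in 5.72%. Barcodes of proximal tubule cells, which should lack C1q, were taken with at least 10 UMIs of proximal tubule markers. They also had 0 UMIs of Adgre1, Csf1r, Cd68, Fcgr1, Mertk and Lyz2. They numbered 116 to 566 per library at median depths of 3778 to 7754 UMIs. In them 30.3% to 52.6% had at least 1 C1q UMI, but 0 reached 10, and the highest value of any was 9. Barcodes with UMIs of those macrophage genes were left out beforehand. The values therefore cannot say how often barcodes that mix both cell types reach the C1q limit.

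C1q levels lay far from the threshold in nearly all members. The median was 53, 59 and 62 C1q UMIs per member with SH045 and 56, 75 and 70 with Vehicle. Just inside the limit, with 10 to 12 C1q UMIs, were 33 members (0.780%), and just outside it, with 7 to 9 UMIs and all other limits met, were 64 barcodes. Levels are given as CPM, the UMIs of a gene scaled to 1000000 of the members' total after TMM adjustment of that total (factors of 0.942 to 1.101, a scaling for differences in RNA composition). C1qa was at 3779, 3896 and 3905 with SH045 and 3803, 3576 and 3846 with Vehicle. C1qb was at 5796, 7551 and 7744 against 8547, 8249 and 8185, and C1qc at 4789, 6396 and 6304 against 7184, 6737 and 7009. SH045 1 was the lowest library for both C1qb and C1qc. Among the genes limited by the rule, Stab1 averaged 85.2 ± 3.43 with SH045 and 58.3 ± 4.12 with Vehicle within members, and Mrc1 329 ± 11.5 and 295 ± 15.7.

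Markers of other cell types were present in the members' sums at levels that varied between libraries. The 12 macrophage markers, C1qa, C1qb and C1qc among them, summed to 40129 to 50837 CPM with SH045 and 51775 to 55655 with Vehicle, without overlap. The 10 neutrophil markers summed to 199 to 1117 with SH045 and 60.0 to 145 with Vehicle, without overlap; S100a8 led them, with a UMI in 5.25% of members, while Ly6g and Ltf had 1 UMI each in all. The 8 endothelial markers summed to 27.3 to 92.1 against 19.7 to 20.7, also without overlap. The 5 distal convoluted tubule markers summed to 273 to 344 against 203 to 221, without overlap; Pvalb was at 0, and Wnk1, which is expressed widely, gave most of the sum. B and plasma cell markers ranged from 503 to 11615 and haemoglobin and other erythrocyte markers from 23.1 to 14342, with Vehicle 1 highest for the latter. The 6 mast cell markers were at 0 in all libraries. The neutrophil, endothelial and distal convoluted tubule sums each had a two-sided exact permutation p of 0.1, the smallest that 3 against 3 allows. Of all genes tested, 24.4% did not overlap between groups. Monocyte markers reached 3 or more UMIs in 44.7% of members, and B and plasma cell markers in 36.1%. For plasmacytoid dendritic cell markers the share was 28.4%, for proximal tubule 13.5%, for erythrocyte 12.4% and for conventional dendritic cell 2.53%. Of the monocyte markers, Ccr2 had a UMI in 66.8% of members, Plac8 in 9.69% and Ly6c2 in 1.84%. Of the members, 468 (11.1%) carried 3 or more UMIs of markers that are rare in these cells; tests without them are given after the falls and the rises, and what the neutrophil, endothelial and distal tubule markers contribute was not tested otherwise.

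Among themselves, members differed most in a few transcripts. After each member was thinned to 2000 UMIs, the median variance-to-mean ratio over 2678 genes was 1.25, where counting noise alone gives about 1. The highest ratios, as medians over libraries, were those of S100a8 (43.6), the T cell attractant Ccl5 (30.3), osteopontin Spp1 (26.1), clusterin Clu (25.2), apolipoprotein Apoe (24.6), the tubule enzyme Gpx3 (19.98), the monocyte attractant Ccl8 (18.2), the MHC class II invariant chain Cd74 (17.4), Ccl12 (15.0) and Lcn2 (13.2). Apoe was thus detected in 95.0% to 97.4% of thinned members while its amount per cell varied widely. Ccl8 was found in 7.49% to 11.9% of thinned members with SH045 and 22.6% to 24.7% with Vehicle, and Ccl12 in 28.2% to 33.9% and 42.7% to 49.6%. Without thinning, the ranges for Ccl8 were 9.22% to 14.3% and 27.4% to 28.4%.

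MHC class II transcripts varied together from cell to cell. Across members of a library, H2-Aa correlated with H2-Ab1 at 0.661 to 0.735, with H2-Eb1 at 0.669 to 0.767 and with Cd74 at 0.653 to 0.774 (6 libraries). These coefficients are descriptions, since cells of a library share its mouse and its preparation. C1qa and C1qb correlated at 0.235 to 0.395, and H2-Aa and C1qa at 0.0852 to 0.192. H2-Aa and Apoe lay between -0.0440 and 0.0534, so the class II level of a member said next to nothing about its Apoe level. Ccl2 and its neighbour Ccl7 correlated at 0.127 to 0.523.

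SH045 was compared with Vehicle on the members' UMIs summed per library. The edgeR quasi-likelihood test covered 9887 genes, and the Benjamini-Hochberg adjusted p was under 0.05 for 79 (0.799%), of which 51 were higher with SH045 (0.516%) and 28 lower (0.283%). An unadjusted p under 0.05 was reached by 1862 genes (18.8%), and the 3 libraries of a group did not overlap those of the other in 2417 (24.4%). The calls leaned on single libraries. Without SH045 1 the count was 0, with 1413 genes at an unadjusted p under 0.05, and leaving out another library gave 4 (Vehicle 2), 8 (Vehicle 1), 20 (SH045 3), 70 (SH045 2) and 224 (Vehicle 3). With a common minimum of 3175 UMIs per barcode in all libraries, 3 genes were called: Ccl2, Ccl7 and Gdf3.

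The monocyte attractant Ccl2, also known as MCP-1, was the most firmly lower gene. It stood at 117, 151 and 114 CPM with SH045 and at 388, 325 and 250 with Vehicle. Every Vehicle library was above every SH045 library. Ccl2 fell by 1.33 in log2 terms (SE 0.16, edgeR adjusted p = 0.000911), and the fall stayed past the threshold in 19 of 20 alternative settings, the exception being the fit without SH045 1 (adjusted p = 0.0645, range over all 1.12e-13 to 0.0645). Thinned to equal depth, 13.8%, 19.2% and 15.4% of members had a Ccl2 UMI with SH045 and at least 25% with Vehicle, up to 33.5%.

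Ccl7, the gene next to Ccl2 and another ligand of the monocyte receptor CCR2, was at 134, 158 and 130 with SH045 and 471, 352 and 251 with Vehicle. The groups did not overlap. It fell by 1.35 (log2, SE 0.20, edgeR adjusted p = 0.0176) and lost the call without SH045 1 (0.170), without Vehicle 2 (0.0602), with at least 5 C1q UMIs as the limit (0.0636) and with limits scaled to 5000 UMIs (0.208). Both genes lie on chromosome 11 (GRCm38), Ccl2 at 82035571 to 82037453 and Ccl7 at 82045712 to 82047525. Their further neighbours Ccl12 (82101845 to 82103400) and Ccl8 (82115185 to 82116799) encode monocyte attractants as well.

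Ccl12 was at 547, 904 and 918 with SH045 and 1948, 1438 and 1263 with Vehicle, a log2 difference of -0.97 (SE 0.22) that did not pass the test (edgeR adjusted p = 0.063) but passed in 6 of 20 alternative settings, among them DESeq2's test (0.000151) and the fit without members with rare markers (0.0459). Ccl8 was at 118, 287 and 261 against 1254, 711 and 791, with a log2 difference of -2.04 (SE 0.44, edgeR adjusted p = 0.117; DESeq2 0.00062). The libraries of the groups did not overlap for either gene, but both varied widely within groups. Of the 23 tested genes of the inflammatory chemokine and cytokine list, 2 passed, both lower (Ccl2 and Ccl7), and 4 of 23 (17.4%) had a positive log2 difference. The list's median log2 difference was -0.35, against 0.01 over all genes tested. Cytokines of the list did not pass: Il1b was at 83.0 ± 56.1 and 60.8 ± 12.3, Tnf at 19.4 ± 7.82 and 20.6 ± 13.7 and Tgfb1, the main fibrogenic cytokine, at 172 ± 10.9 and 175 ± 29.3 (SH045 and Vehicle, SD, n = 3 each), with edgeR adjusted p of 0.774, 0.950 and 0.938.

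**Figure D2:**
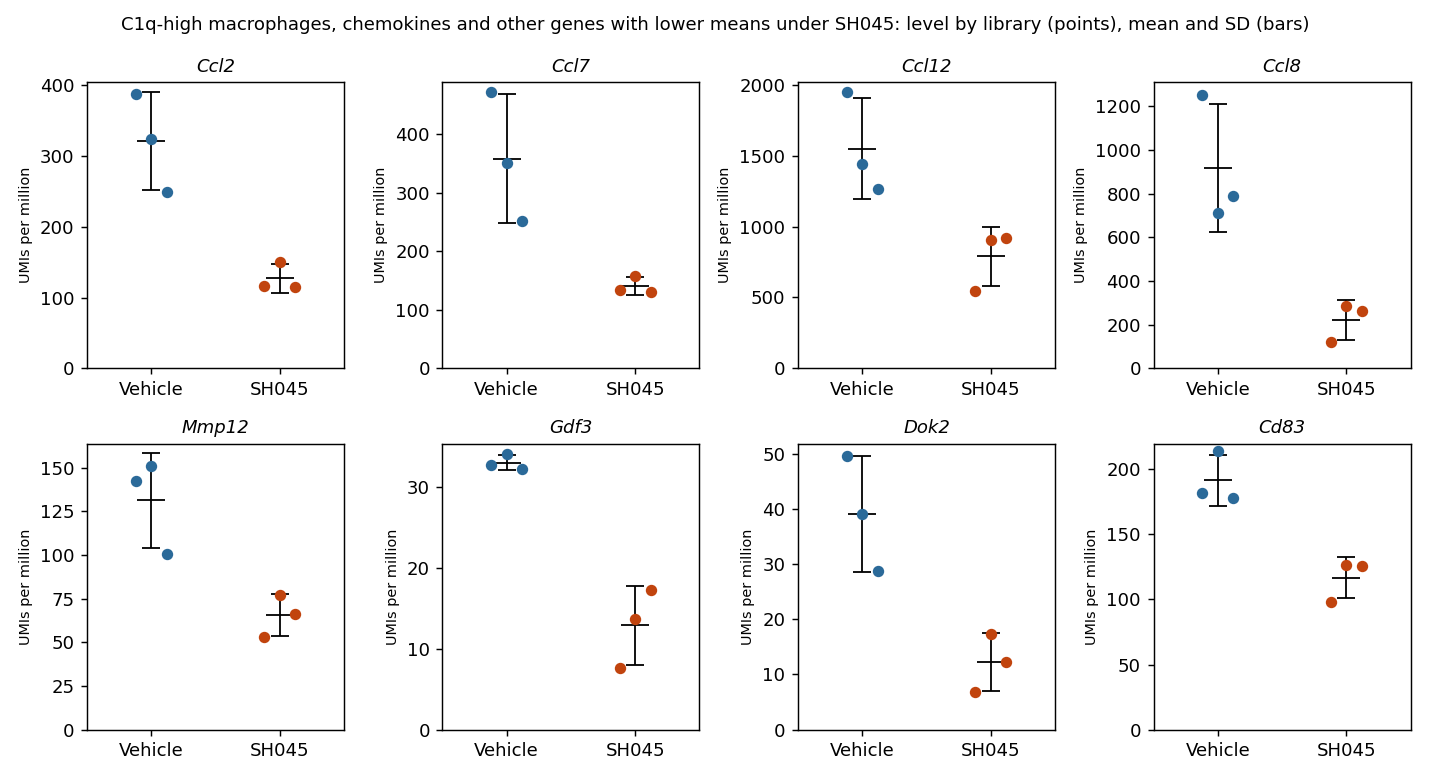
Level in CPM of 8 genes in each library (points), with the mean and SD of 3 mice per group (bars), on axes that start at 0. In all 8 the SH045 libraries lie under the Vehicle libraries, for example 114 to 151 against 250 to 388 for Ccl2; Ccl12 and Ccl8 did not pass the test.

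Other genes that fell included surface and secreted proteins of myeloid cells. The macrophage elastase Mmp12 was at 53.0, 76.9 and 66.2 CPM with SH045 and 142, 151 and 100.3 with Vehicle, a fall of 0.99 in log2 terms (SE 0.17, edgeR adjusted p = 0.0146). Gdf3, a growth factor of the TGF-beta family, was at 7.67, 13.7 and 17.3 against 32.8, 34.0 and 32.2, and fell by 1.28 (SE 0.23, edgeR adjusted p = 0.0176). Dok2, an adaptor that restrains tyrosine kinase signalling, was at 6.91, 17.4 and 12.3 against 49.6, 39.0 and 28.7 and fell by 1.61 (SE 0.27, edgeR adjusted p = 0.0146). In all of these the highest SH045 library lay under the lowest Vehicle library.

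The activation marker Cd83, which stabilises MHC class II at the surface, was at 98.2, 126 and 125 with SH045 and 182, 214 and 178 with Vehicle (log2 -0.70, SE 0.14, edgeR adjusted p = 0.0259). The lectin Cd209a, a marker of dendritic cells that had a UMI in 1.91% of members, was at 3.84, 9.15 and 11.9 against 40.6, 20.6 and 25.1 (log2 -1.70, edgeR adjusted p = 0.0291). Without the 5% of barcodes with the highest Scrublet doublet scores its log2 difference was -0.83 and the call ended (adjusted p = 0.659), while with at least 20 C1q UMIs it was -3.45. The antiproliferative gene Btg1 was at 206, 207 and 200.1 against 287, 551 and 387, and Ly6a (Sca-1) at 203, 261 and 244 against 436, 368 and 321; both had an edgeR adjusted p of 0.0333. The proton channel Hvcn1 and the coagulation factor F10 were lower at the same adjusted p, F10 on 7 UMIs with SH045 and 65 with Vehicle. The protease inhibitor Cstb, the replication protein gene Rpa3, and Ctnnbl1, Rinl, Pdlim7 and Ifitm1 completed the falls that the naming rule took up, with log2 differences between -0.72 (Cstb) and -1.18 (Ifitm1). Ifitm1 turned to 0.06 without the highest Scrublet scores (edgeR adjusted p = 0.986) and kept the call in 1 of the 6 fits that each leave out a library.

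Of these falls, Mmp12, Dok2 and Cd83 kept the call in 2 of the 6 fits that each leave out a library, Gdf3 and Cd209a in 3, and Ccl7 in 4. Without the members that carried rare markers of other cell types, Ccl2 fell by 1.27 (edgeR adjusted p = 0.000162) and Ccl7 by 1.34 (adjusted p = 0.00309). Of the 17 named falls, 12 were called in that fit, Mmp12 (0.056) and Ly6a (0.533) were not, and Cd209a, F10 and Ifitm1 were under its low-count filter. All 16 named rises were called in it. That fit was added after the data were seen. The planned fit left out the 3003 members (71.0%) with 3 or more UMIs of any other cell type's markers. It called 42 genes, of which 17 were among the 79, and it tested 72 of the 79.

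Genes higher with SH045 were mostly long. The cholesterol exporter Abca1 was at 110, 94.3 and 91.2 CPM with SH045 and 51.8, 40.3 and 60.0 with Vehicle. It rose by 0.94 in log2 terms (SE 0.16, edgeR adjusted p = 0.0146), and the groups did not overlap. The C1q-related receptor Cd93 was at 147, 110 and 117 against 86.8, 68.1 and 64.5 and rose by 0.76 (SE 0.15, edgeR adjusted p = 0.0259). The adhesion receptor Adgre5 (CD97) was at 66.8, 52.6 and 50.4 against 24.7, 33.2 and 26.0 and rose by 1.01 (SE 0.18, edgeR adjusted p = 0.0146). The sialic acid receptor Siglec1 (CD169) was at 19.2, 22.4 and 24.2 against 7.18, 13.4 and 10.9 and rose by 1.10 (SE 0.26, edgeR adjusted p = 0.0481). Of the 6 fits that each leave out a library, 4 called Adgre5, 3 Abca1, 3 Cd93 and 1 Siglec1.

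Further rises were those of Itga4, the alpha chain of an integrin of migrating leukocytes (83.3 ± 11.9 and 47.2 ± 10.6 CPM, SD, n = 3 each), Parp14, an interferon-induced ADP-ribosyltransferase (70.8 ± 1.28 and 40.6 ± 5.16), the organic anion exporter Abcc3 (41.8 ± 7.26 and 21.7 ± 6.06) and the SMAD co-repressor Ski (59.3 ± 15.5 and 33.3 ± 2.79). The histone methyltransferase genes Kmt2a and Ash1l, the phosphatase gene Ssh2, and Ankrd17, Phrf1, Rnf169, Zfp871 and Fbrs also rose, by 0.83 (Ssh2) to 1.18 (Phrf1) on the log2 scale. Abcc3 kept the call in 0 of the 6 fits that each leave out a library, and the other 11 genes of this paragraph in 1 to 4.

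Fold changes followed transcript length, and the rises have to be read beside that. Over 9882 genes the Spearman correlation of the log2 fold change with the length of the longest annotated transcript was 0.446, a description across genes that are not independent. The median log2 fold change was -0.18 in the shortest 10% of genes and 0.33 in the longest 10%. Called genes that were higher had a median length of 6677 bases, those that were lower 2052, and all genes tested 3233. Each SH045 library deviated from the mean of all libraries towards long transcripts (Spearman 0.423, 0.0982 and 0.204) and each Vehicle library towards short ones (-0.408, -0.234 and -0.197). What the trend contributes to single genes was not tested apart from a fit that removes it.

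With the length trend removed, 30 genes were called, 9 higher and 21 lower, and 14 of them were among the 79. Ccl2 (log2 -1.11, edgeR adjusted p = 0.000792), Ccl7 (-1.12, 0.025), Dok2 (-1.44, 0.025), Gdf3 (-1.14, 0.0368), Mmp12 (-1.10, 0.0368), Cd209a (-1.49, 0.0481), Cd83 (-0.60, 0.0466), Btg1, Ctnnbl1 and Rinl were called lower in both fits, and Ccl12 was now called (-0.81, 0.0466). Of the named rises Adgre5 was called in both (1.05, 0.0207). The other 15 of the 16 named rises lost the call, among them Abca1 (0.59, 0.0795), Cd93 (0.49, 0.152) and Siglec1 (0.87, 0.13), at adjusted p up to 0.183. So did 7 of the 17 named falls: Ly6a, Hvcn1, F10, Cstb, Rpa3, Pdlim7 and Ifitm1.

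**Figure D3:**
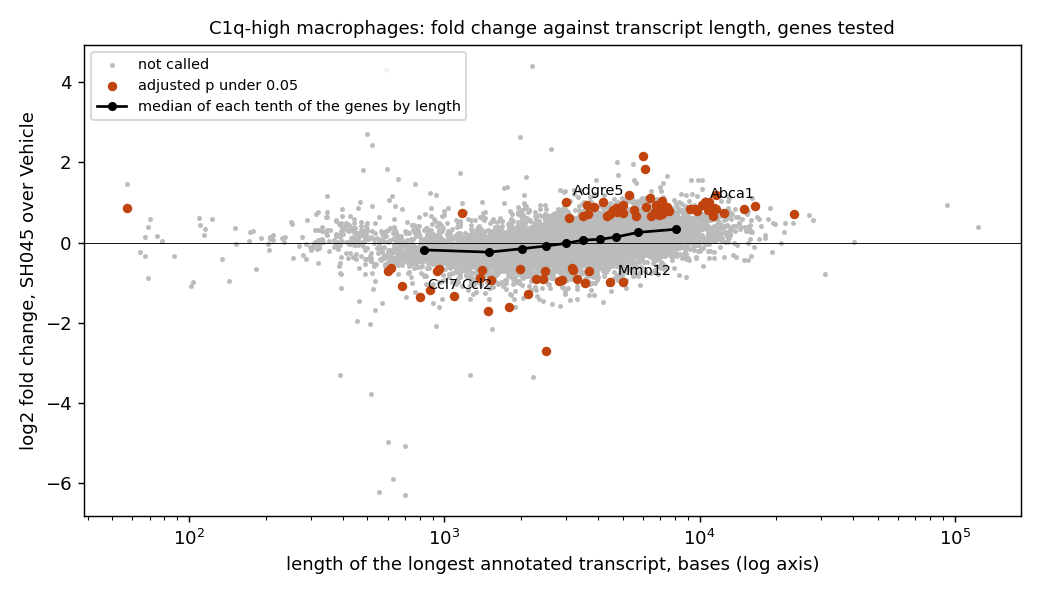
Log2 fold change of SH045 over Vehicle for each tested gene against the length of its longest annotated transcript in bases (log axis), with called genes in colour and the median of each 10% of the genes by length as a line. The line climbs from -0.18 for the shortest 10% to 0.33 for the longest, with Ccl2 and Ccl7 well under it.

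**Figure D4:**
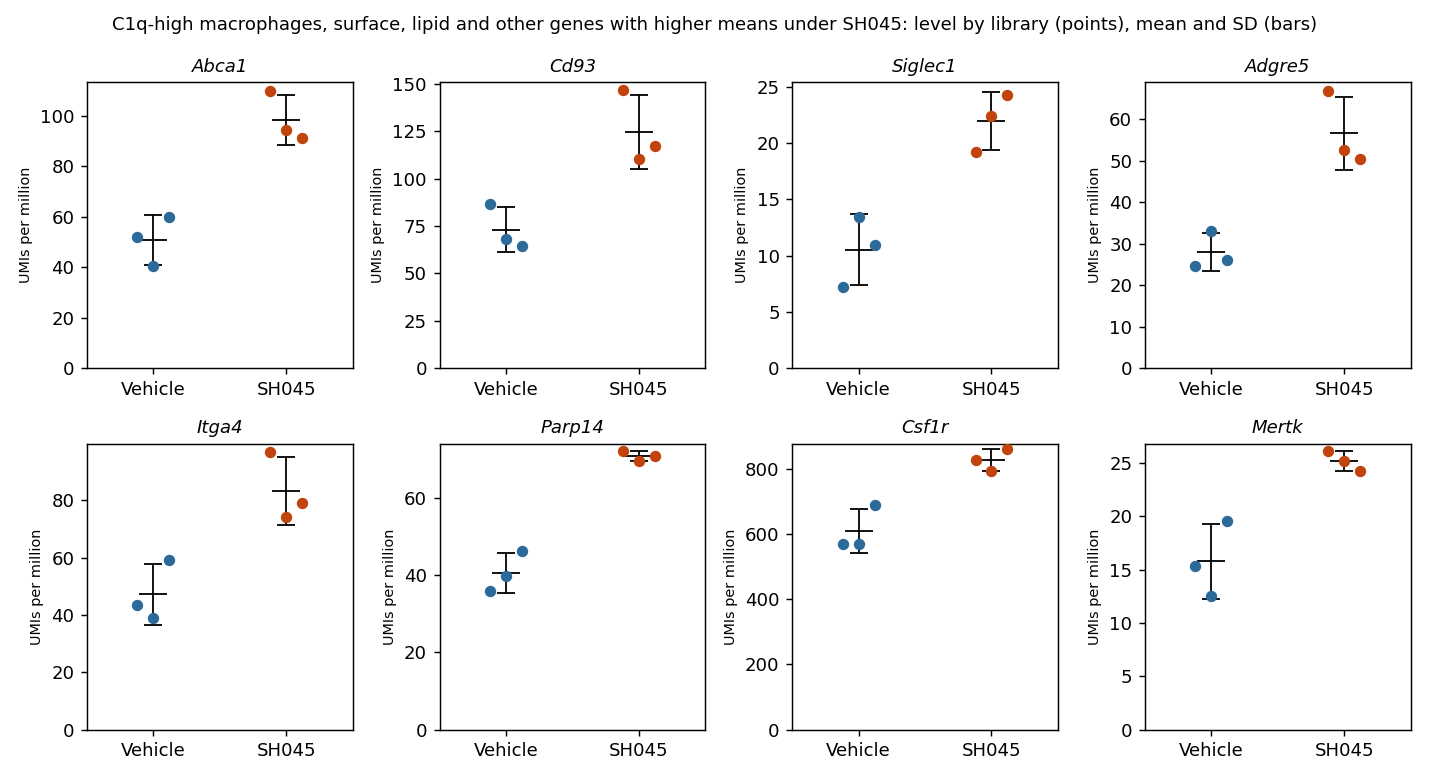
Level in CPM of 8 genes in each library (points), with the mean and SD of 3 mice per group (bars), on axes that start at 0. The SH045 libraries lie above the Vehicle libraries in all 8, for example 91.2 to 110 against 40.3 to 60.0 for Abca1; Csf1r and Mertk did not pass the test.

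Of the receptors that keep and define macrophages, none of the fixed ones passed. Csf1r, the receptor for the growth factors CSF1 and IL-34, was at 828, 793 and 861 CPM with SH045 and 571, 571 and 688 with Vehicle (log2 0.44, SE 0.14, edgeR adjusted p = 0.092). Mertk was at 25.2 ± 0.922 and 15.8 ± 3.51 (adjusted p = 0.128), the fractalkine receptor Cx3cr1 at 762 ± 37.2 and 647 ± 40.4 (0.345), the lipid receptor Trem2 at 142 ± 19.97 and 170 ± 13.8 (0.324), Adgre1 at 555 ± 64.6 and 519 ± 14.2 (0.736) and the CCL2 receptor Ccr2 at 888 ± 186 and 714 ± 70.3 (0.268). The transcription factor gene Maf was at 891 ± 138 and 772 ± 10.1 (0.440). Cd72, one of the label's markers, was at 635, 557 and 740 with SH045 and 929, 1114 and 832 with Vehicle, without overlap (log2 -0.57, SE 0.15, edgeR adjusted p = 0.0602). Of 29 tested genes of the macrophage identity list, 1 passed (Cd83, lower), with a median of -0.13.

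No antigen presentation gene passed the test. Of 20 class II and 20 class I genes, 5 of each had a positive log2 difference, among them Ciita, the class II transactivator (144 ± 28.3 and 102 ± 15.4, log2 0.48, edgeR adjusted p = 0.106). Cd74 was at 43180, 59231 and 53973 CPM with SH045 and 71199, 60730 and 73076 with Vehicle (log2 -0.39, SE 0.12, edgeR adjusted p = 0.101). H2-Ab1 was at 12288, 16224 and 14168 against 21290 (Vehicle 1), 16884 and 19567 (log2 -0.44, SE 0.13, adjusted p = 0.0821). The groups did not overlap for these 2 genes, though SH045 2 came close to Vehicle 2 in both. H2-Aa (log2 -0.13, adjusted p = 0.590) and H2-Eb1 (-0.22, adjusted p = 0.371), whose upstream sequences are printed above, overlapped between groups. Of 20 class II presentation genes 0 were called by edgeR, and the median was -0.21 (-0.10 with the length trend removed). Of the 20, 9 (45%) had an unadjusted edgeR p under 0.05, 8 of them lower, against 18.8% of all genes tested. Of 20 class I presentation genes 0 were called, with a median of -0.11. An unadjusted edgeR p under 0.05 was reached by 4 (20%), close to the 18.8% of all genes tested.

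Complement and engulfment lists held 1 called gene each. Among 15 tested complement components and receptors outside the C1q chains, Cd93 passed, and the median was 0.28. Among 18 genes of apoptotic cell uptake, Abca1 passed, which the list of 26 cholesterol and lipid genes shares, with medians of 0.08 and -0.27. The lipid-associated list, which holds Apoe, Spp1 and Trem2, had 0 of 18 called and a median of -0.33. Of the 18, 7 (38.9%) had an unadjusted edgeR p under 0.05, against 18.8% of all genes tested. Apoe was at 15389, 22849 and 19409 with SH045 and 27531, 24371 and 23308 with Vehicle (log2 -0.38, SE 0.13, edgeR adjusted p = 0.132). Spp1 was at 740, 254 and 1054 against 596, 1004 and 631 (adjusted p = 0.946), so that SH045 held both its lowest and its highest library. Of 29 lysosome genes 0 were called, with a median of 0.02.

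Lists of origin and response gave few calls. Of 16 tested resident and repair genes 1 was lower (Ccl7), with a median of -0.39; the repair growth factor Igf1 was at 90.9 ± 16.3 and 130 ± 25.2 (edgeR adjusted p = 0.109). Of the 16, 9 (56.2%) had an unadjusted edgeR p under 0.05, 8 of them lower, against 18.8% of all genes tested. Of 20 monocyte-derived genes Itga4 was higher and F10 lower. Of the 20, 10 (50%) had an unadjusted p under 0.05, 9 of them lower. The median was -0.22, and -0.12 with the length trend removed. Of 37 type I interferon genes 1 was higher (Parp14), with a median of 0.15, and 12 (32.4%) had an unadjusted p under 0.05, 11 of them higher. Of 26 interferon-gamma targets 1 was lower (Ly6a). Of 31 Toll-like receptor and NF-kB genes 0 were called and 7 (22.6%) had an unadjusted p under 0.05. Of 14 matrix degradation genes 1 was lower (Mmp12), of 30 purine receptor and channel genes 1 was lower (Hvcn1), of 25 immediate early genes 1 was lower (Btg1) and of 23 microglia and Cx3cr1 macrophage genes 1 was higher (Ski). Trpc6, the channel named in the series title, had 1 UMI in all members together and was under the low-count filter.

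Nuclear-encoded genes of oxidative phosphorylation were the most one-sided of the 24 lists. Of 74 tested, 3 had a positive log2 difference (4.05%, against 51.5% of all genes tested), and 0 were called by edgeR. Of the 74, 40 (54.05%) had an unadjusted edgeR p under 0.05, all of them lower, against 18.8% of all genes tested. The list's median was -0.32, and -0.16 with the length trend removed. Its median transcript length was 1135 bases. The 7 tested mitochondrially encoded genes, at a median length of 1144 bases, had a median of 0.18, and 76 cytosolic ribosomal protein genes, at 1100 bases, one of 0.04. With the length trend removed these medians were 0.40, with 1 gene called higher, and 0.21. Glycolysis and hypoxia genes had 0 of 26 called, heat shock and unfolded protein genes 0 of 23 and iron and haem genes 0 of 18. At an unadjusted edgeR p under 0.05 were 2 (7.69%), 5 (21.7%) and 3 (16.7%) of them, against 18.8% of all genes tested.

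**Figure D5:**
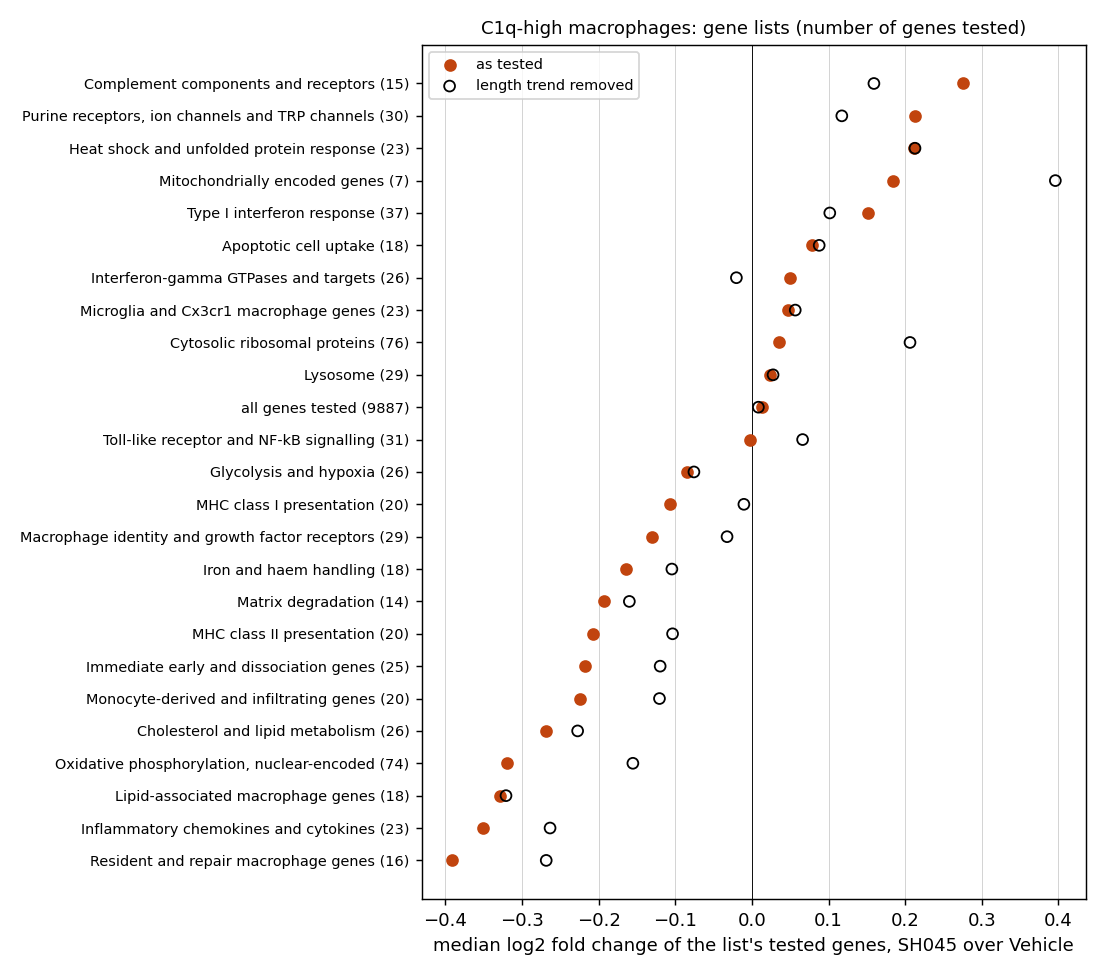
Median log2 fold change of SH045 over Vehicle for each gene list, with the number of genes tested in brackets, as tested (filled) and with the transcript length trend removed (open). Among the filled points resident and repair genes (-0.39) and inflammatory chemokines (-0.35) lie lowest and complement genes highest (0.28), and among the open points lipid-associated genes (-0.32) lie lowest and mitochondrially encoded genes highest (0.40).

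The response of the members was set beside that of 2 other sets of C1q-high barcodes from the same mice: 2603 that exceeded only the Stab1 and Mrc1 limit, and 484 that exceeded only the limit of Cxcl2, Ccl3 and Ccl4. The difference in response was tested with a class by treatment term and the library as a block. It was called for 9 of 10234 genes (0.0879%) against the Stab1 and Mrc1 macrophages and for 5 of 8595 (0.0582%) against the chemokine-high macrophages.

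Whether the chemokine differences were larger than in Stab1 and Mrc1 macrophages depended on the setting. Ccl2 was there at 205, 144 and 139 CPM with SH045 and 491, 388 and 252 with Vehicle, a log2 difference of -1.21, and the difference in response was -0.12 (SE 0.19, edgeR adjusted p = 0.973). For Ccl7 it was -0.22 (SE 0.10, adjusted p = 0.866), for Ccl12 -0.18 (SE 0.17, 0.970), for Ccl8 -0.65 (SE 0.46, 0.970), for Abca1 0.15 (SE 0.14, 0.970) and for Cd93 -0.09 (SE 0.13, 0.970). Within Stab1 and Mrc1 macrophages, Cd72 was lower with SH045 than with Vehicle by 0.68 on the log2 scale (edgeR adjusted p = 0.0175). Its difference in response was 0.10 (SE 0.09, edgeR adjusted p = 0.970). With the common minimum of 3175 UMIs per barcode, Ccl7 (-0.74, edgeR adjusted p = 0.00181) and Ccl12 (-0.53, 0.00312) were called. Ccl8 was called without SH045 3 (-1.12, 3.64e-11), and Ccl2 was called in 0 of 9 alternatives.

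The class II terms were positive, that is, the log2 difference was less negative or more positive in members, and did not pass in the fit with all libraries. They were 0.28 for H2-Aa (SE 0.06, edgeR adjusted p = 0.529), 0.27 for H2-Ab1 (SE 0.06, 0.238), 0.30 for H2-Eb1 (SE 0.06, 0.130) and 0.27 for Cd74 (SE 0.07, 0.844). Of 9 alternatives, 4 called H2-Aa, 5 H2-Ab1, 5 H2-Eb1 and 3 Cd74, with the lowest adjusted p at 1.85e-05 for H2-Ab1.

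Against the chemokine-high macrophages, Ccl12 differed in response. Members were at 547 to 918 with SH045 and 1263 to 1948 with Vehicle, while chemokine-high macrophages were at 1299, 2429 and 2152 with SH045 and 2732, 1423 and 2027 with Vehicle, where the groups overlapped. The difference in response was -0.85 in log2 terms (SE 0.13, edgeR adjusted p = 2.19e-07), and it kept the call in 5 of 6 fits that each leave out a library. The other called terms, S100a8, S100a9, Retnla and Gzma, rested on classes with under 4 UMIs in 2 or more libraries. For Ccl2 the difference was -0.53 (SE 0.19, adjusted p = 0.626), with chemokine-high levels of 298, 403 and 507 against 976, 474 and 616.

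Compared with all 5645 other C1q-high barcodes together, members differed in transcripts that the rule did not name, given here as levels with no test (means ± SD over 6 libraries). The largest ratios upwards were those of the tubule transcripts Lcn2 (log2 1.26), Ldhb (0.94) and Atp6v1g3 (0.87). Cd72 averaged 801 ± 203 CPM in members and 539 ± 108 in the others, and Asb2 73.3 ± 8.79 and 44.8 ± 3.39. Chemokine-high macrophages were as high, at 859 for Cd72 and 77.8 for Asb2, so neither marks the members alone. H2-Eb1 and Cd74 were higher in members by 0.47 and 0.44 on the log2 scale, at means of 14090 and 60230 CPM. Chemokine-high macrophages came close to these means too, at 13100 and 57050, so the same limit holds. Lower in members were Mmp12 (98.3 ± 40.7 and 444 ± 309), the actin-capping gene Capg (91.8 ± 36.6 and 346 ± 216), S100a4 (56.2 ± 13.8 and 187 ± 69.1) and the chemokine Ccl6 (683 ± 225 and 2056 ± 1283). Stab1 and Mrc1 macrophages had similar low means for these 4, at 69.9, 69.0, 40.2 and 716. The coagulation factor F13a1 (10.7 ± 3.36 and 56.4 ± 28.6) was also low in chemokine-high macrophages (12.5).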

How the data were processed

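Single-cell RNA libraries of 6 obstructed kidneys were prepared on Singleron GEXSCOPE beads, per the labels' protocols. The authors deposited 1 matrix per library, holding raw UMI counts for each gene in each barcode; the build was mm10 per the submitters' processing notes, and the aligner, counter and cell-calling rule are not given in the sources used here. Together the matrices list 31276 genes in all. The members and gene lists were chosen with earlier results of these data known.

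Counts of the members were summed per library and tested with edgeR 4.0.16 (R 4.3.3, filterByExpr, TMM factors, robust quasi-likelihood, Benjamini-Hochberg limit 0.05), the 22 rule genes staying in library totals only. Levels (CPM) are UMIs scaled to a TMM-adjusted total of 1000000. TMM factors were 1.00 to 1.10 with SH045 and 0.942 to 0.977 with Vehicle; scaling by totals alone moves all log2 fold changes up by 0.12 (median). Shares were compared by two-sided exact permutation tests. Other C1q-high classes entered 1 model with the members, with the library as a block. The length trend was removed as a spline offset per library. Doublets were left in; the 5% highest Scrublet scores (scanpy 1.11.5) were removed in an alternative. DESeq2 1.42.0 was a further alternative. On simulated data for this comparison (9696 genes), the test recovered 66% of genes changed 2-fold and 98% of those changed 4-fold; of 185 calls 21 were unchanged genes.

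Named genes followed a rule: among called genes of at least 20 CPM in a group, without overlap, the 8 largest rises and falls; the 4 smallest p in each direction; the 10 most abundant; up to 4 called genes per list and direction; 28 fixed genes, 1 of them not reported here; 5 per class comparison; and the 10 largest variance-to-mean ratios. Predicted genes and immunoglobulin, haemoglobin, Xist and Y-linked genes stayed out of the lists by size. Genes named outside it were chosen after their values were seen: Ciita, Ldhb, Atp6v1g3, Asb2, F13a1, Capg, S100a4 and Ccl6, the rule genes, the marker genes of the cell type check and the class comparison genes past the fifth. Coordinates are those of GENCODE M21.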

Additional observations from a re-analysis of the deposited data

Results flagged for a closer look

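In 14 cases the response to SH045 differed between the members and another class of C1q-high macrophages of the same mice, by edgeR's class by treatment term with Benjamini-Hochberg adjustment. Each value is the members' log2 fold change (SH045 over Vehicle) less that of the other class.

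Against Stab1 and Mrc1 macrophages, the term was -3.36 for the cytotoxic granzyme Gzma (adjusted p = 0.00147), which had 43, 24 and 110 UMIs in that class with SH045 against 1, 1 and 3 with Vehicle, and 46, 35 and 55 against 65, 26 and 29 in members. It kept the call in 6 of 6 fits that each leave out a library. For Pigr, an immunoglobulin transporter of epithelia, the term was -4.48 (adjusted p = 0.00314), on 5, 11 and 86 UMIs with SH045 and 1, 0 and 1 with Vehicle in the other class. The term was 0.50 for Gpx3 (adjusted p = 0.00938), 0.51 for the lectin Clec4b1 (0.00938), 1.31 for Spink1 (0.0144), 1.92 for the bicarbonate transporter Slc4a4 (0.0165), -2.69 for Plet1 (0.0183), 5.85 for the neutrophil receptor Cxcr2 (0.0383) and 1.40 for the iron exporter Slc40a1 (0.0419). The last 2 kept the call in 1 of 6 such fits, and Plet1 in 2. Cxcr2 had 0, 1 and 0 UMIs with SH045 and 2, 9 and 11 with Vehicle in the other class. Members held 4, 8 and 15 UMIs of Cxcr2 against 8, 0 and 9. Plet1 had 6, 35 and 30 UMIs with SH045 and 2, 7 and 3 with Vehicle in the other class, and 4, 32 and 10 against 21, 38 and 33 in members. Slc40a1 was at 26.0, 25.8 and 25.4 CPM with SH045 and 89.2, 51.2 and 54.0 with Vehicle in Stab1 and Mrc1 macrophages, where the groups did not overlap. In members it was at 13.1, 18.3 and 12.3 against 27.5, 10.3 and 7.10, where they did.

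Against chemokine-high macrophages, the term was 5.83 for S100a8 (adjusted p = 1.29e-47) and 6.78 for S100a9 (9.87e-12), calgranulins of neutrophils and monocytes. S100a8 was at 738, 144 and 119 CPM with SH045 and 75.2, 29.1 and 43.5 with Vehicle in members, while the chemokine-high class held 6, 3 and 0 UMIs with SH045 and 56, 109 and 20 with Vehicle. The summed neutrophil markers of the members were also higher with SH045. Their part in these terms was not tested. For Retnla, a secreted protein of alternatively activated macrophages, the term was -8.40 (5.49e-25). Members held 1, 21 and 1 UMIs with SH045 and 378, 428 and 197 with Vehicle, and the other class 0, 83 and 0 against 8, 10 and 11. Without SH045 2 the adjusted p of Retnla was 0.999. The term was -0.85 for Ccl12 (2.19e-07) and -5.15 for Gzma (0.00204), the latter on 35, 0 and 2 UMIs with SH045 and 1, 0 and 0 with Vehicle in the chemokine-high class.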

How the results depend on the processing

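Against 79 called genes (64.6% higher), the count was 157 without the 5% highest Scrublet scores. It was 3 with the common minimum of 3175 UMIs per barcode. With at least 5 C1q UMIs it was 871 (385 higher and 486 lower). With limits scaled to 5000 UMIs it was 19 (4 and 15), and without cells with other cell types' markers 42. Without the low-count filter it was 366 (180 and 186), and with the length trend removed 30 (9 and 21, 14 shared). DESeq2's test gave 199 (51 and 148, 33 shared). Settings added after the data were seen gave 214 without cells with rare markers and 285 with library totals alone (262 and 23, 91.9% higher). Leaving out 1 library gave 0 to 224. The number of genes tested differed as well. It was 9887 in the main fit, 6452 without cells with other cell types' markers and 21328 without the low-count filter. DESeq2's test gave an adjusted p for 1892 genes only. Genes without one could not be called, so the 33 shared do not mean that the rest of the 79 failed there. The causes were not tested. Of the 79, 1 turned without the highest Scrublet scores and 1 with at least 5 C1q UMIs; the other settings kept the direction of those they tested, from 72 upwards.

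Without the low-count filter the class comparison with Stab1 and Mrc1 macrophages called 28 genes. With the common minimum of 3175 UMIs per barcode it called 13 (4 shared with the 9). Leaving out 1 library gave 6 to 22, and in the comparison with chemokine-high macrophages 7 to 17. The difference in the members' share of C1q-high cells ranged from -12.9 to 0.276 percentage points when 1 library was left out, and turned without Vehicle 1.

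Same-numbered libraries did not deviate together (correlations -0.0214, -0.0535 and 0.0351), and the labels do not say whether they were processed together; with the replicate block 89 genes were called, 61 of them among the 79.

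Of the 33 called genes named, Ifitm1 turned, at 0.0597 (log2) without the highest Scrublet scores. Among 22 named genes not called, 28 values passed the threshold in the same direction (6 each for Ccl12 and Cd72) and 21 values turned, at adjusted p of 0.426 and above. They were H2-Aa (0.072 with 5 C1q UMIs), Maf (-0.0325, length removed), Mertk (-0.00919, without other types' markers) and Il1b (-0.242 without SH045 1, with -0.242 to 0.768 over the libraries left out). Spp1 was at 0.0176 (Scrublet), 0.0286 (common minimum), 0.00478 (totals alone) and 0.0982 (length removed), and at -0.59 to 0.267 with 1 library left out. Tgfb1 was at 0.168 (5 C1q UMIs), 0.0934 (totals alone) and 0.0546 (length removed), and at -0.151 to 0.0869 with 1 left out. Tnf was at 0.156 (5 C1q UMIs), 0.0199 (totals alone) and 0.0916 (length removed), and at -0.416 to 0.541 with 1 left out. Depth limits genes of few UMIs, such as F10 and Cd209a.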

Other observations

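Some transcripts of other cell types varied between single libraries in the members' sums. The immunoglobulin light chain Igkc was at 6156, 2501 and 70.1 CPM with SH045 and 2890, 265 and 9967 with Vehicle. The haemoglobin chain Hba-a1 was at 4828 CPM in Vehicle 1, at 219 in Vehicle 2 and at 5.91 to 25.2 in the other 4 libraries. These genes were chosen after their values were seen.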
